A study of Mus musculus with 9 samples.

Results

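The collagen and laminin genes of mouse corona radiata cells were compared between 3 genotypes: 58 genes of the 54838 in the deposited matrix. They were taken by symbol as the collagen chain genes of the form Col, number, a, number, laminin chain genes (Lama, Lamb and Lamc), and the nidogen genes Nid1 and Nid2, the perlecan gene Hspg2 and the fibronectin gene Fn1. By the type of structure their proteins build, 21 are basement membrane genes, 11 are fibrillar collagens and 26 are other collagens with fibronectin. The corona radiata is the innermost layer of granulosa-derived cells around the oocyte. RNA was sequenced from cells of adult mice after PMSG, a gonadotropin that drives follicle growth, and hCG, which triggers ovulation, with the term J4 left unexplained in the labels.

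The transgenic libraries (3) came from mice that lack both liver X receptors (LXRs) and carry a transgene named TG-AMH-LXRb. The LXR DKO libraries (3) came from mice that lack both LXRs and carry no transgene by their labels, and the WT libraries (3) from wild-type mice. All 9 libraries share the same age class and hormone treatment. LXRs are nuclear receptors that bind oxysterols and switch on genes of cholesterol export. Which promoter drives the transgene, in which cells it acts and what was deleted from the receptor genes is not stated, nor whether each library is a different animal, and p-values cover the variation between these libraries, which may be technical. Levels are RPKM, reads scaled to gene length and library size, as deposited. A difference is a log2 fold change on the log2(RPKM + 1) scale ± SE from limma, and values of single libraries are listed in the order of replicates 1, 2 and 3. A gene is called where its p, adjusted by Benjamini-Hochberg over the 16422 genes tested, is under 0.05.

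Basement membranes are thin sheets of matrix built from a laminin network and a type IV collagen network, which nidogens and the proteoglycan perlecan link. A laminin is a trimer of an alpha, a beta and a gamma chain, and type IV collagen is a trimer made mostly of the Col4a1 and Col4a2 chains. Fibrillar collagens of types I, III and V form the fibres of loose connective tissue. In the ovary a basement membrane encloses the follicle outside its granulosa cells, granulosa cells make type IV collagen and laminin within the follicle, and this matrix is rebuilt as the follicle ovulates and turns into a corpus luteum.

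Granulosa markers were detected in every library, and the summed RPKM of the 12 listed genes was 498 to 592 RPKM in the transgenic libraries, 426 to 679 RPKM in the LXR DKO libraries, and 744 to 813 RPKM in the WT libraries. Inha was the highest of them in every library. Cyp19a1 was low, at 0.182 to 1.19 RPKM, and was under the filter. Nr1h2, the LXR beta gene, lay at 4.83 to 6.7 RPKM in transgenic, 2.85 to 3.57 in the LXR DKO libraries and 39.7 to 45.7 in the WT libraries, and Nr1h3, the LXR alpha gene, at 0.395 to 0.819 RPKM in transgenic, 0.713 to 1.08 in the LXR DKO libraries and 3.5 to 5.72 in the WT libraries. Several libraries stood apart in markers of other cells. Oocyte marker sums were 461 RPKM in LXR DKO 1 and 775 RPKM in WT 1, and at most 45.5 RPKM elsewhere. The summed oviduct epithelium markers were 1913, 2539 and 2521 RPKM in the transgenic libraries, 605, 1147 and 861 RPKM in the LXR DKO libraries, and 453, 401 and 2194 RPKM in the WT libraries, so that the transgenic libraries and WT 3 were high. WT 3 also had the highest erythroid sum, 9881 RPKM against at most 971 RPKM elsewhere. In bulk RNA, fewer cells of a type and less RNA per cell cannot be told apart. Of the 11 granulosa markers tested, 2 fell in transgenic and 3 fell in LXR DKO against WT, where 6.72% and 7.12% of all tested genes fell, and their part in the results that follow was not tested. Reads worked back from the values, counting only genes whose value came out as a whole number of reads, numbered 29859221 to 44162958 per library.

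Basement membrane genes made up most of the collagen and laminin RNA. The RPKM of these 58 genes summed to 618 to 727 in the transgenic libraries, 630.0 to 723 in the LXR DKO libraries and 383 to 614 in the WT libraries. The basement membrane genes held 71.2 to 77.8% in the transgenic libraries, 68.9 to 79.1% in the LXR DKO libraries and 75.8 to 81.2% in the WT libraries of this sum. The class of other genes, with Fn1 foremost, summed to 130.2 to 194 in the transgenic libraries, 116 to 208 in the LXR DKO libraries and 74 to 103 in the WT libraries, and the 11 fibrillar collagens to only 14.2 to 17.5 in the transgenic libraries, 13 to 16.6 in the LXR DKO libraries and 19 to 24.9 in the WT libraries. Col4a1, Fn1, Col4a2, Lamb2, Col18a1 and Lama1 had the highest mean RPKM over the 9 libraries, in that order, and none of these genes was below 36.1 RPKM in any library.

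**Figure D1:**
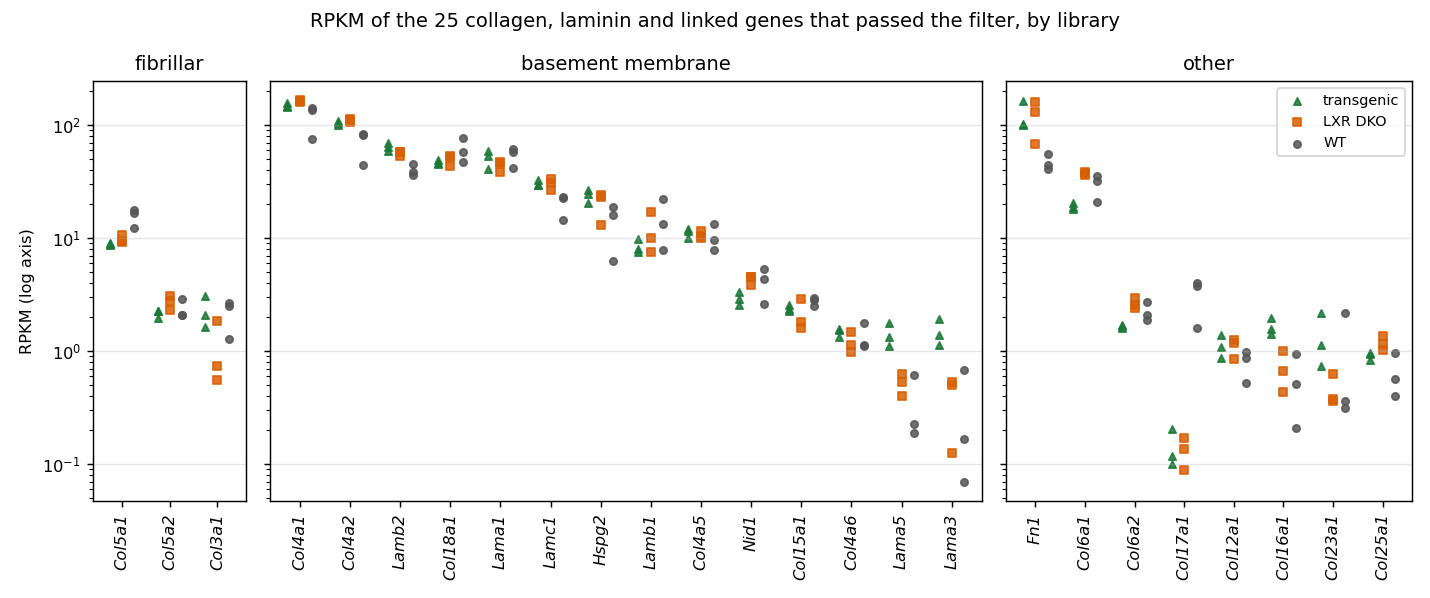
Level of the 25 genes that reached at least 1 RPKM in at least 3 libraries, in RPKM on a log axis, by class and library (points are single libraries, coloured by genotype). Col4a1 and Col4a2 lead the basement membrane genes, Col5a1 leads the fibrillar collagens and Fn1 the other genes, while Col17a1 lies above 1 RPKM in the WT libraries and below 0.21 RPKM in the other 6.

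Of the 58 genes, 25 passed the filter on low values and were tested (14 basement membrane, 3 fibrillar, 8 other), and 33 did not. Comparing LXR DKO with WT, 2 of the 25 rose, Lamb2 and Fn1, and 2 fell, Col17a1 and Col5a1. That is 8% in each direction, where 3.47% of all tested genes rose and 7.12% fell. Comparing transgenic with WT, 6 rose (Lamb2, Lamc1, Lama5, Lama3, Fn1 and Col16a1), 24% of the 25 against 5.15% of all tested genes. Another 2 fell, Col17a1 and Col5a1, 8% against 6.72% of all tested genes. Lama3 and Lama5 passed the filter only through the transgenic libraries, where they are high, and Col16a1 through these and LXR DKO 2. Col17a1 passed it only through the WT libraries. The shares of 24% and 8% therefore rest in part on genes that were tested because 1 genotype was high. Comparing transgenic with LXR DKO, 0 rose and 0 fell in limma, where 0.0548% and 0.0609% of all tested genes did. At an unadjusted p under 0.05, 6 of the 25 differed between transgenic and LXR DKO, where 8.1% of all tested genes did, and limma-voom on read numbers also called 0. The comparisons of transgenic and of LXR DKO with WT share the 3 WT libraries, so their values are given side by side. Without WT 3, rich in erythroid and oviduct RNA, 7 genes rose and 4 fell in transgenic against WT, and 3 rose and 1 fell in LXR DKO against WT. Without the oocyte-rich WT 1 and LXR DKO 1, 2 rose and 1 fell in transgenic, and 2 rose and 0 fell in LXR DKO. Col17a1 dropped under the filter, and so out of these counts, whenever a WT library was left out.

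The median log2 fold change of the 25 tested genes was 0.15 for transgenic minus WT, where that of all tested genes was 0.01. It was 0.14 for LXR DKO minus WT (all genes 0.02) and 0.02 for transgenic minus LXR DKO (all genes 0.01). Among the 14 basement membrane genes, 4 rose and 0 fell in transgenic against WT, with a median of 0.27, where 5.15% of all tested genes rose and 6.72% fell. Lama3 and Lama5 are among the 4 that rose, and both passed the filter only through the transgenic libraries. In LXR DKO against WT, 1 of these 14 rose and 0 fell, with a median of 0.09, where 3.47% of all tested genes rose and 7.12% fell. Of the 3 fibrillar collagens tested, Col5a1 fell in both comparisons with WT. Among the 8 other genes, 2 rose and 1 fell in transgenic against WT, and 1 rose and 1 fell in LXR DKO against WT. In classes of this size 1 gene is a large share, so the class counts are only a description.

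**Figure D2:**
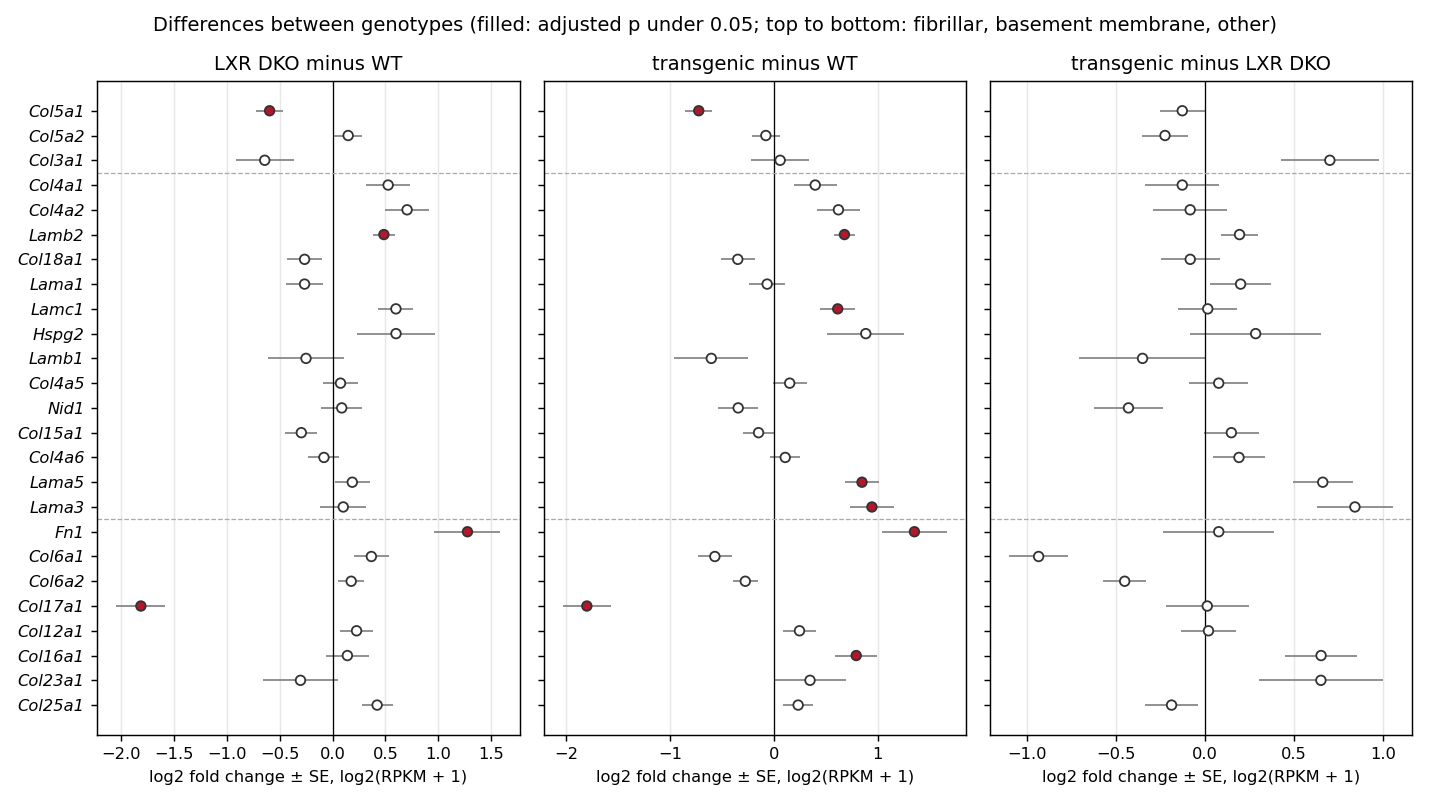
Log2 fold change (log2(RPKM + 1) scale, points) with its SE (lines) of the 25 tested genes, for LXR DKO minus WT, transgenic minus WT and transgenic minus LXR DKO. Filled points passed an adjusted p of 0.05: 4 genes in LXR DKO minus WT, 8 in transgenic minus WT and 0 in transgenic minus LXR DKO. Col17a1 has the most negative value in both comparisons with WT.

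Col4a1 and Col4a2, the chains of the common type IV collagen, were the highest basement membrane genes. Col4a1 measured 144, 157 and 148 RPKM in the transgenic libraries, 162, 163 and 167 RPKM in the LXR DKO libraries, and 137, 141 and 75.4 RPKM in the WT libraries. Col4a2 measured 100.4, 109 and 104 RPKM in the transgenic libraries, 107, 114 and 112 RPKM in the LXR DKO libraries, and 84.1, 81.9 and 44.9 RPKM in the WT libraries. Every LXR DKO and transgenic library lay above every WT library for both genes, with WT 3 far below WT 1 and WT 2. The differences did not pass: for Col4a2 they were 0.62 ± 0.21 (limma adjusted p = 0.0854) for transgenic minus WT, and 0.70 ± 0.21 (limma adjusted p = 0.065) for LXR DKO minus WT. For Col4a1 they were 0.40 ± 0.21 (limma adjusted p = 0.233) for transgenic minus WT, and 0.53 ± 0.21 (limma adjusted p = 0.148) for LXR DKO minus WT. WT 3 was the lowest library, and without it Col4a2 passed in transgenic (adjusted p = 0.0189) and in LXR DKO (adjusted p = 0.0147). Transgenic and LXR DKO libraries differed by -0.08 ± 0.21 (limma adjusted p = 0.954) for Col4a2 and by -0.13 ± 0.21 (limma adjusted p = 0.918) for Col4a1.

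These 2 genes lie head to head on chromosome 8 and their annotated 5′ ends overlap by 22 bases, so that both start within the same stretch of DNA. Their promoter windows are shown because the genes' levels moved together across the libraries. Each window runs from 250 bases before to 50 bases after the start of transcription (RefSeq, GRCm38.p6) and is written 5′ to 3′ on the gene's own strand. The Col4a1 window is chr8:11312777-11313076, minus strand, and the Col4a2 window is chr8:11312555-11312854, plus strand. Capitals mark the 78 bases that both windows contain, which read as reverse complements of each other.
Col4a1: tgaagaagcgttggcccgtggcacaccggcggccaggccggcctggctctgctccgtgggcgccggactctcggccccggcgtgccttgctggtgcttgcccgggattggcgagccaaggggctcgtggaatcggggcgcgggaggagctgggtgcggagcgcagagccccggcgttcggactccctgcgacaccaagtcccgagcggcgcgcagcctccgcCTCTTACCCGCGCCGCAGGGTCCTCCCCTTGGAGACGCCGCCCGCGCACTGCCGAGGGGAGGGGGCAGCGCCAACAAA
Col4a2: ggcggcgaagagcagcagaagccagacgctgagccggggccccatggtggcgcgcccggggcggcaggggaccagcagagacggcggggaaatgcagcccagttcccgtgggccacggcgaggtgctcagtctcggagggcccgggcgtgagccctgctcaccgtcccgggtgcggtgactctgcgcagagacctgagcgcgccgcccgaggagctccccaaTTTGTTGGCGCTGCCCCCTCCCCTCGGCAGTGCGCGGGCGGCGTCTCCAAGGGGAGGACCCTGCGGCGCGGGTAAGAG
The ratio of Col4a1 to Col4a2, both per length, varied little within a genotype. It was 1.42 to 1.44 in the transgenic libraries, 1.42 to 1.51 in the LXR DKO libraries and 1.63 to 1.72 in the WT libraries, and no LXR DKO or transgenic library reached the lowest WT value. With 3 libraries against 3, an exact permutation test cannot give a p below 0.1, so this ratio is a description.

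The other type IV chains were much lower. Col4a5, a chain of many epithelial basement membranes, spanned 7.8 to 13.3 RPKM and its head-to-head neighbour Col4a6 on the X chromosome 0.975 to 1.76 RPKM, neither past the threshold in any comparison. Col4a3 and Col4a4, chains of the kidney filter's type IV collagen, reached at most 0.132 and 0.0664 RPKM. Col4a1 and Col4a2 together held 94.8 to 95.4% in the transgenic libraries, 95.6 to 96% in the LXR DKO libraries and 93.1 to 95.3% in the WT libraries of the type IV RPKM.

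Lamb2, the beta 2 chain of laminin, rose in both transgenic and LXR DKO against WT. The gene lies at chr9:108479736-108490530, plus strand (mm10). It measured 59.6, 64.2 and 69.2 RPKM in the transgenic libraries, 52.9, 57.5 and 57.9 RPKM in the LXR DKO libraries, and 45.4, 38.3 and 36.1 RPKM in the WT libraries. The genotypes did not overlap: every transgenic value lay above every LXR DKO value, and every LXR DKO value above every WT value. Mean levels were 64.3 ± 4.85 RPKM in transgenic, 56.1 ± 2.78 in LXR DKO and 39.9 ± 4.89 in WT libraries (SD, n = 3 each). The difference was 0.68 ± 0.10 (limma adjusted p = 0.00591) for transgenic minus WT, and 0.49 ± 0.10 (limma adjusted p = 0.0201) for LXR DKO minus WT. Between transgenic and LXR DKO it was 0.19 ± 0.10 (limma adjusted p = 0.686), which did not pass. The transgenic call held under every alternative run. The LXR DKO call was lost in 3 omissions of a library (adjusted p = 0.0637 without WT 2, 0.0686 without LXR DKO 2 and 0.0801 without LXR DKO 3) and with only the 2 genotypes compared (0.0539).

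Lamb1, the beta 1 chain of laminin, had no such order. It measured 8.0, 7.53 and 9.79 RPKM in the transgenic libraries, 17, 7.61 and 10.1 RPKM in the LXR DKO libraries, and 22.1, 13.3 and 7.78 RPKM in the WT libraries. It was highest in LXR DKO 1 and WT 1 within their genotypes, the libraries with the most oocyte RNA, and its differences did not pass. They were -0.60 ± 0.36 (limma adjusted p = 0.288) for transgenic minus WT, and -0.25 ± 0.36 (limma adjusted p = 0.709) for LXR DKO minus WT. The oocyte marker sums of those libraries were 461 RPKM in LXR DKO 1 and 775 RPKM in WT 1 over 9 genes, and their part in the Lamb1 level was not tested. Lamb2 held 87.5 to 89.4% in the transgenic libraries, 75.6 to 88.2% in the LXR DKO libraries and 67.3 to 82% in the WT libraries of the RPKM of all laminin beta chains.

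Lamc1, the gamma 1 chain found in most laminins, lies at chr1:153218922-153332786, minus strand (mm10). It measured 29.7, 29.6 and 32.4 RPKM in the transgenic libraries, 26.9, 30.6 and 33.6 RPKM in the LXR DKO libraries, and 22.5, 23.1 and 14.5 RPKM in the WT libraries. All LXR DKO and transgenic values exceeded all WT values, and WT 3 was the lowest. Lamc1 rose in transgenic against WT (0.61 ± 0.17, limma adjusted p = 0.0466), while LXR DKO minus WT was 0.60 ± 0.17 (limma adjusted p = 0.0533), which did not pass. These 2 differences were nearly equal in size, and transgenic minus LXR DKO was 0.01 ± 0.17 (limma adjusted p = 0.99). The transgenic call was lost without WT 1, WT 2, LXR DKO 2, LXR DKO 3, transgenic 1, transgenic 2 or transgenic 3 (adjusted p = 0.0585 to 0.143), with no filter (0.105), with WT 1 and LXR DKO 1 both left out (0.0637) and with only the 2 genotypes compared (0.0797). Without WT 3, Lamc1 passed in LXR DKO too (adjusted p = 0.0423).

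Lama1, the alpha 1 chain, was the main laminin alpha chain, with 92.2 to 95.3% in the transgenic libraries, 95.8 to 97.3% in the LXR DKO libraries and 95.9 to 97.9% in the WT libraries of the alpha chain RPKM. It measured 41.2, 58.8 and 53.3 RPKM in the transgenic libraries, 46.4, 38.8 and 47 RPKM in the LXR DKO libraries, and 57.9, 61.1 and 41.9 RPKM in the WT libraries. The genotypes overlapped, and no comparison passed (-0.07 ± 0.17, limma adjusted p = 0.827 for transgenic minus WT). Of the other alpha chains under the filter, Lama4, known from vessel walls, reached at most 0.971 RPKM, and Lama2, the muscle chain, at most 0.252 RPKM.

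**Figure D3:**
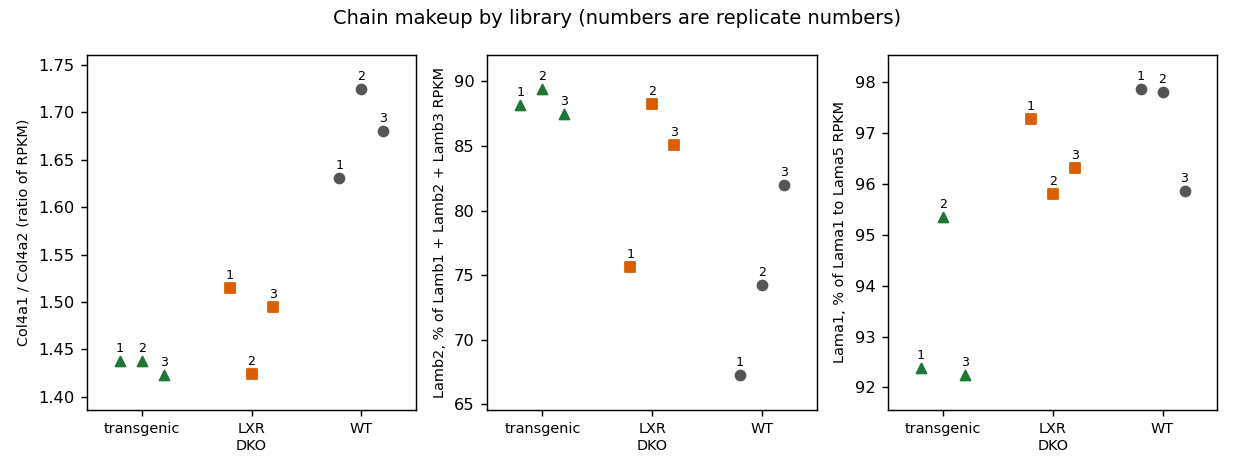
Makeup of type IV collagen and of the laminin beta and alpha chains in each library: the ratio of Col4a1 to Col4a2 RPKM, and Lamb2 and Lama1 as a percentage of all beta and all alpha chain RPKM (points are single libraries with their replicate numbers). The Col4a1 to Col4a2 ratio is 1.42 to 1.44 in the transgenic libraries, 1.42 to 1.51 in the LXR DKO libraries and 1.63 to 1.72 in the WT libraries, and the Lama1 share is lowest in the transgenic libraries.

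Lama3 and Lama5, laminin chains typical of epithelia, were highest in the transgenic libraries. Lama3, the alpha 3 chain of the laminin that anchors epithelia (chr18:12333819-12583013, plus strand), measured 1.38, 1.14 and 1.92 RPKM in the transgenic libraries, 0.126, 0.503 and 0.529 RPKM in the LXR DKO libraries, and 0.0698, 0.168 and 0.679 RPKM in the WT libraries. Lama5, the alpha 5 chain of mature epithelial basement membranes (chr2:180176373-180225859, minus strand), measured 1.35, 1.1 and 1.78 RPKM in the transgenic libraries, 0.398, 0.622 and 0.534 RPKM in the LXR DKO libraries, and 0.189, 0.225 and 0.62 RPKM in the WT libraries. For both genes every transgenic library lay above all 6 other libraries, and among the WT libraries WT 3 lay well above WT 1 and WT 2. Lamb3, the beta chain of that anchoring laminin, was under the filter with at most 0.158 RPKM.

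Both rose in transgenic against WT, by 0.94 ± 0.22 for Lama3 (limma adjusted p = 0.028) and 0.85 ± 0.17 for Lama5 (limma adjusted p = 0.0171). Each gene passed the filter only through the transgenic libraries. Transgenic minus LXR DKO was 0.84 ± 0.22 for Lama3 and 0.66 ± 0.17 for Lama5, and neither passed (limma adjusted p = 0.299 and 0.296). LXR DKO minus WT was 0.10 ± 0.22 (limma adjusted p = 0.816) for Lama3, and 0.19 ± 0.17 (limma adjusted p = 0.534) for Lama5. The oviduct epithelium markers were also high in the transgenic libraries: their sum was 1913, 2539 and 2521 RPKM in the transgenic libraries, 605, 1147 and 861 RPKM in the LXR DKO libraries, and 453, 401 and 2194 RPKM in the WT libraries. Ovgp1 made up most of each transgenic sum, at 1266, 1857 and 1679 RPKM. Krt8, Krt18, Krt19 and Cldn3 were highest in WT 3, and the other listed markers in a transgenic library. The WT 3 sum lay above that of transgenic 1, while Ovgp1 (1125 RPKM) and Cdh1 (17.6 RPKM) in WT 3 lay below every transgenic library. Lama3 and Lama5 were lower in WT 3 than in every transgenic library. All 10 of the 10 markers were detected, none was at 0 in all libraries, and 1 of 10, Cdh1, rose in transgenic against WT, with a median log2 fold change of 1.67. The part of oviduct RNA in the laminin differences was not tested.

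WT 3, the WT library rich in oviduct RNA, was the WT library nearest to the transgenic ones in both genes. Without it, transgenic minus WT was 1.14 for Lama3 (adjusted p = 0.00567) and 0.99 for Lama5 (adjusted p = 0.0043). The call of Lama3 was lost without WT 1 (0.082), without WT 2 (0.0846), with a pseudocount of 0.1 (0.0566), with no filter (0.0641), without both WT 1 and LXR DKO 1 (0.0645) and with voom (0.051). That of Lama5 was lost without WT 1 (0.0557), without WT 2 (0.0583) and without both WT 1 and LXR DKO 1 (0.0561). Depth bears on the lowest values, since Lama3 had 33 to 699 reads and Lama5 95 to 710 reads per library.

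**Figure D4:**
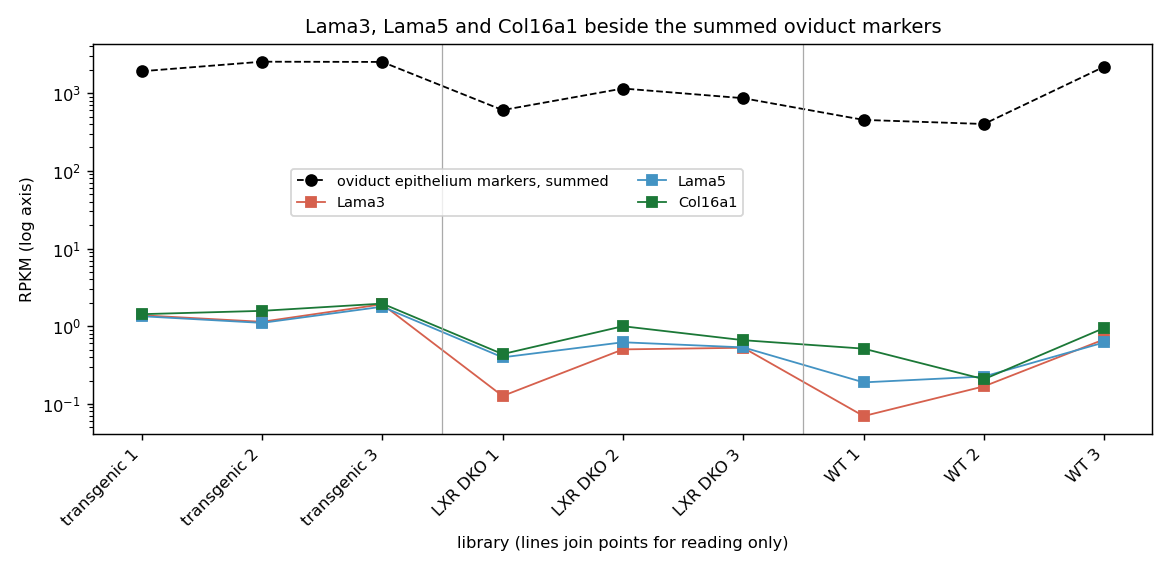
RPKM (log axis) of Lama3, Lama5 and Col16a1 in each library (horizontal axis, by genotype), with the summed RPKM of 10 oviduct epithelium markers above them (points are single libraries, and lines only join them). The 3 transgenic libraries lie highest in each gene, with marker sums of 1913 to 2539 RPKM, and WT 3, at 2194 RPKM, lies apart from WT 1 and WT 2.

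The linkers of the basement membrane did not pass in any comparison. Hspg2, which encodes the heparan sulfate proteoglycan perlecan, measured 20.4, 24.7 and 26.9 RPKM in the transgenic libraries, 13, 23.9 and 23.3 RPKM in the LXR DKO libraries, and 18.7, 16.1 and 6.24 RPKM in the WT libraries. Its lowest library was WT 3 and the genotypes overlapped through LXR DKO 1 (0.88 ± 0.37, limma adjusted p = 0.147 for transgenic minus WT). Nid1, the nidogen that bridges laminin and type IV collagen, spanned 2.55 to 5.33 RPKM, and its paralog Nid2 stayed under the filter at 0.154 to 0.452 RPKM. Nid1 passed only where WT 3 was left out (-0.58, adjusted p = 0.017 for transgenic minus WT). Col18a1 and Col15a1, the collagens that carry heparan or chondroitin sulfate chains at basement membranes, spanned 43.5 to 77.7 and 1.61 to 2.95 RPKM. Col18a1 was highest in WT 1 and did not pass (-0.35 ± 0.16, limma adjusted p = 0.191 for transgenic minus WT), except without WT 3 (-0.51, adjusted p = 0.0333). Col15a1 passed only without LXR DKO 1 (-0.47, adjusted p = 0.0367 for LXR DKO minus WT).

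Fibrillar collagens were low, and of the 3 tested Col5a1 alone passed. Col5a1 encodes the alpha 1 chain of type V collagen, which starts the assembly of collagen fibrils. The gene lies at chr2:27886425-28039514, plus strand (mm10). It measured 8.94, 8.73 and 9.15 RPKM in the transgenic libraries, 10.8, 9.34 and 9.53 RPKM in the LXR DKO libraries, and 17.8, 16.6 and 12.4 RPKM in the WT libraries. Every transgenic and LXR DKO library lay below every WT library. Means were 8.94 ± 0.211 RPKM in transgenic, 9.88 ± 0.78 in LXR DKO and 15.6 ± 2.86 in WT libraries (SD, n = 3 each). Col5a1 fell in transgenic against WT (-0.72 ± 0.13, limma adjusted p = 0.0116) and in LXR DKO against WT (-0.59 ± 0.13, limma adjusted p = 0.022), and transgenic minus LXR DKO was -0.13 ± 0.13 (limma adjusted p = 0.847). The transgenic call held under every alternative run. That of LXR DKO was lost in 4 omissions (adjusted p = 0.0669 without WT 1, 0.0705 without WT 2, 0.0771 without LXR DKO 2 and 0.0857 without LXR DKO 3), with no filter (0.0525), without both WT 1 and LXR DKO 1 (0.0627) and with only the 2 genotypes compared (0.0684).

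Its partner chain Col5a2 did not follow it. Col5a2 measured 2.26, 1.98 and 2.26 RPKM in the transgenic libraries, 3.07, 2.77 and 2.3 RPKM in the LXR DKO libraries, and 2.11, 2.9 and 2.07 RPKM in the WT libraries, with overlapping genotypes. Its differences were -0.08 ± 0.13 (limma adjusted p = 0.722) for transgenic minus WT, and 0.15 ± 0.13 (limma adjusted p = 0.531) for LXR DKO minus WT, neither past the threshold. The ratio of Col5a1 to Col5a2, per length, was 3.95 to 4.41 in the transgenic libraries, 3.37 to 4.15 in the LXR DKO libraries and 5.72 to 8.45 in the WT libraries. All WT ratios lay above all others.

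Col3a1, Col1a1 and Col1a2, the type III and type I collagens of connective tissue, overlapped between the genotypes. Col3a1 measured 3.05, 1.63 and 2.1 RPKM in the transgenic libraries, 0.738, 1.84 and 0.558 RPKM in the LXR DKO libraries, and 2.64, 1.29 and 2.49 RPKM in the WT libraries, and no comparison passed (0.70 ± 0.28, limma adjusted p = 0.565 for transgenic minus LXR DKO). Col3a1 was highest in transgenic 1 and WT 1. Col1a1 and Col1a2, under the filter, spanned 0.221 to 1.49 and 0.133 to 1.4 RPKM. Both were highest in transgenic 1 and LXR DKO 2 and, among WT libraries, in WT 3. The summed smooth muscle and pericyte markers, 8 genes with 0 of them at 0 in all libraries, were 85.6, 69.3 and 33.4 RPKM in the transgenic libraries, 17.2, 95.1 and 15.5 RPKM in the LXR DKO libraries, and 19.5, 13.9 and 99.3 RPKM in the WT libraries, also highest within each genotype in transgenic 1, LXR DKO 2 and WT 3. None of the 7 markers tested passed in any comparison, and their part was not tested. Stroma and theca markers, 7 genes with 4 below 1 RPKM everywhere, summed to 6.17 to 7.14 RPKM in the transgenic libraries, 6.45 to 9.34 RPKM in the LXR DKO libraries, and 5.12 to 22.1 RPKM in the WT libraries.

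Fn1, which encodes fibronectin, the glycoprotein that joins collagens to cell surface integrins, rose in both transgenic and LXR DKO against WT. The gene lies at chr1:71585520-71653200, minus strand (mm10). It measured 101, 103 and 164 RPKM in the transgenic libraries, 68.4, 161 and 132 RPKM in the LXR DKO libraries, and 55.2, 44 and 40.7 RPKM in the WT libraries. The WT libraries were the 3 lowest, LXR DKO 1 was the nearest to them, and transgenic 3 and LXR DKO 2 were highest. Means were 123 ± 36.1 RPKM in transgenic, 120.5 ± 47.5 in LXR DKO and 46.6 ± 7.6 in WT libraries (SD, n = 3 each). The difference was 1.35 ± 0.31 (limma adjusted p = 0.0291) for transgenic minus WT, and 1.27 ± 0.31 (limma adjusted p = 0.0356) for LXR DKO minus WT, while transgenic minus LXR DKO was 0.08 ± 0.31 (limma adjusted p = 0.975). The transgenic call was lost without WT 1, WT 2, transgenic 1, transgenic 2 or transgenic 3 (adjusted p = 0.0532 to 0.1) and with no filter (0.0764). The LXR DKO call was lost without WT 1, WT 2, WT 3, LXR DKO 2, LXR DKO 3, transgenic 1 or transgenic 2 (adjusted p = 0.0539 to 0.128), with no filter (0.0972) and with only the 2 genotypes compared (0.0646). Macrophages can also make fibronectin. The summed macrophage markers, 10 genes of which none was at 0 in all libraries, were 403 to 588 RPKM in the transgenic libraries, 664 to 1280 RPKM in the LXR DKO libraries, and 544 to 1271 RPKM in the WT libraries, and Lyz2 made up most of each sum, at 296 to 896 RPKM. Of the 9 markers tested, 4 fell in transgenic against WT (Cd68, C1qa, C1qb and C1qc), with a median log2 fold change over the 9 of -1.01, and 1, Cd68, fell in transgenic against LXR DKO, with a median of -1.19. None passed in LXR DKO against WT, and the part of macrophage RNA was not tested.

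Col17a1 had the largest fall. It encodes a transmembrane collagen of hemidesmosomes, the plaques that fix epithelial cells to the basement membrane. The gene lies at chr19:47646344-47692094, minus strand (mm10). It measured 0.101, 0.206 and 0.118 RPKM in the transgenic libraries, 0.136, 0.0881 and 0.171 RPKM in the LXR DKO libraries, and 3.78, 1.61 and 4.01 RPKM in the WT libraries. The WT libraries were all above 1 RPKM, and the other 6 libraries spanned 0.0881 to 0.206 RPKM. Col17a1 fell by 1.80 ± 0.23 on the log2 scale in transgenic against WT (limma adjusted p = 0.00303) and by 1.81 ± 0.23 in LXR DKO against WT (adjusted p = 0.00286). With a pseudocount of 0.1 in place of 1 the log2 fold changes were -3.66 for transgenic and -3.72 for LXR DKO, so the size depends on the pseudocount. The gene passed the filter only through the 3 WT libraries. Transgenic minus LXR DKO was 0.01 ± 0.23 (limma adjusted p = 0.994).

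The calls of Col17a1 did not rest on a filter or on 1 WT library. With no filter and each WT library left out in turn, a setting chosen after the data were seen, its adjusted p was 0.000729 to 0.0352 in the comparisons with WT. Read numbers could not be worked back for Col17a1, so its depth is unknown. Col7a1, the collagen of the anchoring fibrils below hemidesmosomes, was under the filter at 0.0349 to 0.128 RPKM.

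The promoter windows of 3 genes whose calls held most often are shown, again as 300 bases around the RefSeq start (GRCm38.p6), 5′ to 3′ on the gene's strand. The Lamb2 window is chr9:108479612-108479911, plus strand. The Col5a1 window is chr2:27886175-27886474, plus strand, and the Col17a1 window is chr19:47691993-47692292, minus strand. Capitals mark matches on either strand to GGGCGG (the GC box), CCAAT (the CCAAT box) and AGGTCA (a nuclear receptor half-site), which do not overlap each other here.
Lamb2: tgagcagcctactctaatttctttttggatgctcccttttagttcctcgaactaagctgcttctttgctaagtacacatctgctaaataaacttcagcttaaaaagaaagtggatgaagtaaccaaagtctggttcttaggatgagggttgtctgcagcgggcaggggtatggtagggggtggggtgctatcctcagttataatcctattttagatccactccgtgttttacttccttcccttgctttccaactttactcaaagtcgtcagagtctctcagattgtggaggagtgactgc
Col5a1: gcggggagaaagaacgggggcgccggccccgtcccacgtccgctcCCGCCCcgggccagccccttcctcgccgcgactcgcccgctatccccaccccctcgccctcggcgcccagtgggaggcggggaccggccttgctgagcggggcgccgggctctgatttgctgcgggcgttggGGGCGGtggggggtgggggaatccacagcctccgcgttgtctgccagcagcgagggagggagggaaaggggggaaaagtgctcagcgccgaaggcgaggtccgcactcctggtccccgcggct
Col17a1: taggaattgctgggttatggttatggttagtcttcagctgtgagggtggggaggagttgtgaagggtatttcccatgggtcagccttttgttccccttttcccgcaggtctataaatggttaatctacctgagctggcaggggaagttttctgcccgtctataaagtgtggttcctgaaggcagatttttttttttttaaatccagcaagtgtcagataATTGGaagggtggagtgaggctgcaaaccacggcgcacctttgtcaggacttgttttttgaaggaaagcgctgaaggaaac
Col5a1 holds 2 GGGCGG matches, Col17a1 holds 1 CCAAT match, and the Lamb2 window holds none of the 3 motifs. In the Col4a1 and Col4a2 windows printed above there are 1 and 3 GGGCGG matches and 1 CCAAT match each. Of the 46 windows found for 42 of the 58 genes, 60.9% hold GGGCGG, 32.6% hold CCAAT and 17.4% hold AGGTCA. Among all 32851 windows of the same length the shares are 35.7%, 37.4% and 16.3%. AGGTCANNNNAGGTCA, the paired site of the kind LXRs bind, was in 0 of the 46 windows and in 5 of all windows (0.0152%). A match is only a run of letters, and no match says only that these letters are not in these windows.

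Col6a1 and Col6a2, neighbours on chromosome 10 that encode chains of the beaded filaments of type VI collagen, were lowest in the transgenic libraries. Col6a1 (chr10:76708792-76726168, minus strand) measured 18.9, 20.3 and 18.2 RPKM in the transgenic libraries, 38.6, 36.2 and 37.6 RPKM in the LXR DKO libraries, and 35.4, 32.2 and 21 RPKM in the WT libraries. Col6a2 measured 1.68, 1.6 and 1.7 RPKM in the transgenic libraries, 2.58, 2.94 and 2.41 RPKM in the LXR DKO libraries, and 2.74, 2.1 and 1.89 RPKM in the WT libraries. For Col6a1 every transgenic library lay below every library of the other genotypes, and for Col6a2 likewise. The Col6a1 difference was -0.93 ± 0.17 (limma adjusted p = 0.109) for transgenic minus LXR DKO, and -0.57 ± 0.17 (limma adjusted p = 0.0579) for transgenic minus WT, neither past the threshold. Transgenic minus LXR DKO passed where WT stayed out of the fit (adjusted p = 0.00465) and without WT 3 (0.00205), the WT library lowest in Col6a1. Transgenic minus WT passed without WT 3 (0.00107), with a stricter filter (0.0485) and with voom (0.0469). For Col6a2 the differences were -0.45 ± 0.12 (limma adjusted p = 0.325) for transgenic minus LXR DKO, and -0.28 ± 0.12 (limma adjusted p = 0.167) for transgenic minus WT. Col6a3, the chain that completes the type VI trimer, stayed under the filter at 0.287 to 0.834 RPKM. Of the 9 macrophage markers tested, 4 fell in transgenic against WT and 1 fell against LXR DKO, where 6.72% and 0.0609% of all tested genes fell. The 10 listed markers summed to 459, 403 and 588 RPKM in the transgenic libraries and 664, 1280 and 783 RPKM in the LXR DKO libraries. In the WT libraries they summed to 544, 583 and 1271 RPKM, of which Lyz2 held 343, 365 and 878 RPKM. WT 3 had the highest WT sum and was the lowest WT library in Col6a1 and Col6a2. The part of macrophage RNA in the Col6a1 and Col6a2 levels was not tested.

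Col16a1, a collagen that sits on the surface of fibrils, lies at chr4:130047840-130099283, plus strand (mm10). It measured 1.43, 1.58 and 1.96 RPKM in the transgenic libraries, 0.438, 1.0 and 0.661 RPKM in the LXR DKO libraries, and 0.515, 0.208 and 0.951 RPKM in the WT libraries. The transgenic libraries were the 3 highest and WT 3 was the highest WT library, as for Lama3 and Lama5. Col16a1 rose in transgenic against WT (0.79 ± 0.20, limma adjusted p = 0.0384), and transgenic minus LXR DKO was 0.65 ± 0.20 (limma adjusted p = 0.398). The transgenic call was lost without WT 1, WT 2, LXR DKO 3, transgenic 1, transgenic 2 or transgenic 3 (adjusted p = 0.0587 to 0.13), with a pseudocount of 0.1 (0.0611), with no filter (0.092), without both WT 1 and LXR DKO 1 (0.0877), with only the 2 genotypes compared (0.0578) and with voom (0.0549). Its reads numbered 52 to 448 per library. Oviduct marker sums, given above, were also high in the transgenic libraries and WT 3. The WT 3 sum lay above that of transgenic 1, while its Ovgp1 lay below every transgenic library. Col16a1 was lower in WT 3 than in every transgenic library, and the part of oviduct RNA was not tested.

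**Figure D5:**
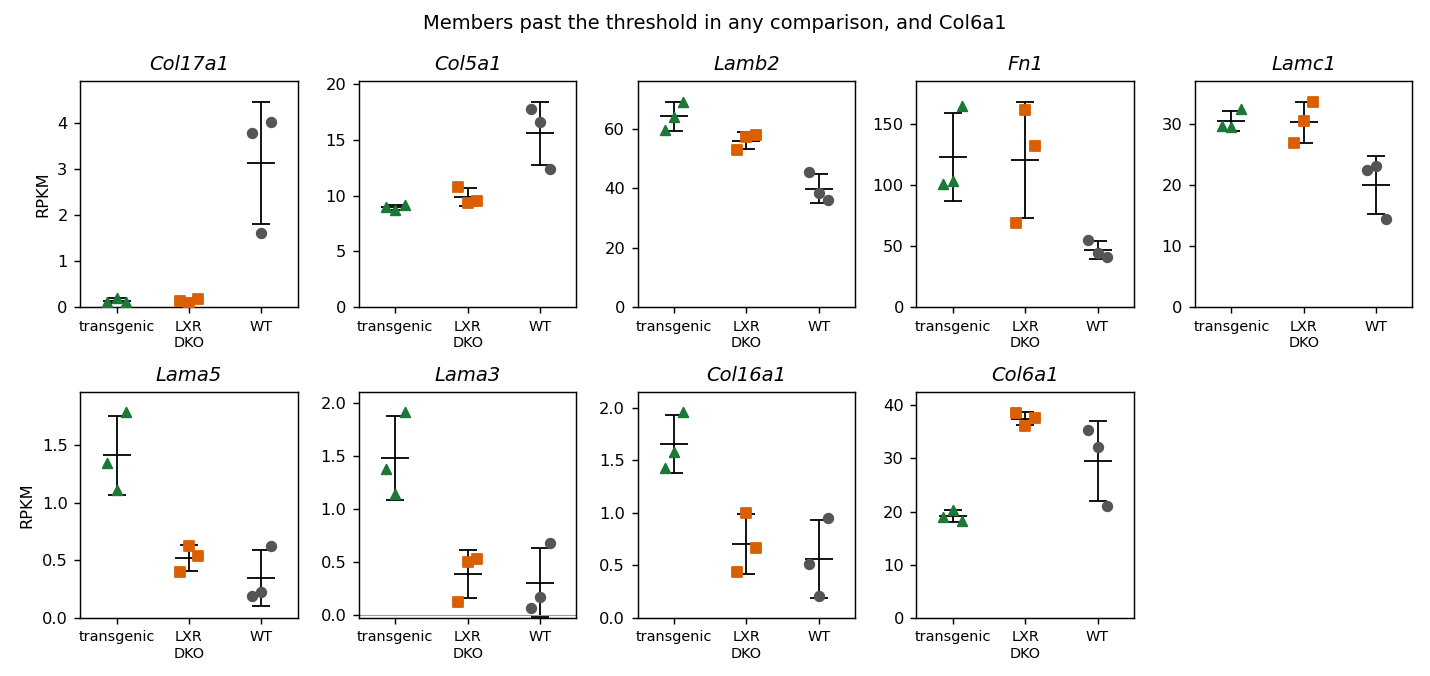
RPKM of the 8 genes that passed in any comparison with WT and of Col6a1, by genotype (points are single libraries, bars are the mean ± SD, n = 3). Col17a1 and Col5a1 are lower and Lamb2 and Fn1 higher in both the transgenic and the LXR DKO libraries than in WT. Lama5, Lama3 and Col16a1 are highest in the transgenic libraries, and Col6a1 is lowest there.

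The remaining other genes that were tested passed in no comparison. Col12a1, a collagen that binds fibril surfaces, spanned 0.521 to 1.4 RPKM. Col23a1 and Col25a1, both transmembrane collagens, spanned 0.316 to 2.2 and 0.402 to 1.37 RPKM. Col23a1 was highest in transgenic 3 and WT 3, at 2.16 and 2.2 RPKM.

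The 33 genes under the filter comprised 7 basement membrane, 8 fibrillar and 18 other genes. Of these, 26 never reached 0.5 RPKM and 1, Col9a1, was listed at 0 in every library. The cartilage collagens among them were nearly silent, with at most 0.0209 RPKM for Col2a1, 0.301 for Col9a2, 0.324 for Col9a3, 0.255 for Col10a1 and 0.133 for Col11a2. A gene with 1 kb of exons needs 0.0638 to 0.0965 RPKM, depending on the library, for 3 reads, a limit of counting error only. Only Col8a2, Col1a1, Col1a2 and Col20a1 reached 1 RPKM in any library, with highest values of 1.54, 1.49, 1.4 and 1.14 RPKM.

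Col20a1, a fibril-associated type of collagen, stood out among these low genes and was chosen after its values were seen. It measured 0.949, 1.14 and 0.951 RPKM in the transgenic libraries, 0.872, 1.02 and 0.789 RPKM in the LXR DKO libraries, and 0.309, 0.284 and 0.12 RPKM in the WT libraries. The 3 WT libraries were the lowest and did not overlap the others. It entered the fit only with no filter, where LXR DKO minus WT was 0.62 (limma adjusted p = 0.0274) and transgenic minus WT was 0.71 (adjusted p = 0.0185). Col11a1, a minor fibrillar chain also chosen after its values were seen, lay the other way, at 0.0745, 0.0782 and 0.0879 RPKM in the transgenic libraries, 0.0898, 0.0868 and 0.0955 RPKM in the LXR DKO libraries, and 0.497, 0.369 and 0.153 RPKM in the WT libraries. Its WT values were all above the rest, and it passed in no fit. The highest values of the remaining genes under the filter were 0.252 for Lamc3, 0.195 for Col5a3, 0.191 for Col24a1, 0.115 for Col27a1, 0.40 for Col8a1, 0.211 for Col14a1 and 0.746 RPKM for Col6a6. They were 0.169 for Col6a4, 0.128 for Col6a5, 0.123 for Col13a1, 0.0924 for Col26a1, 0.0324 for Col28a1, 0.0264 for Col19a1 and 0.0192 RPKM for Col22a1. Col6a6, Col6a5 and Col13a1 were highest in WT 1, a library rich in oocyte RNA.

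Of 26 tested enzymes and chaperones that build and crosslink collagen, 2 rose and 0 fell in LXR DKO against WT, and 1 rose and 2 fell in transgenic against WT. Of all tested genes, 10.6% passed in either direction in LXR DKO and 11.9% in transgenic against WT, so these counts are near the background. In transgenic against LXR DKO, 0 rose and 1 fell, where 0.116% of all tested genes passed. Pxdn, the peroxidase that crosslinks type IV collagen networks, measured 3.24, 3.25 and 3.23 RPKM in the transgenic libraries, 9.2, 9.84 and 11.9 RPKM in the LXR DKO libraries, and 2.69, 2.77 and 1.77 RPKM in the WT libraries. The LXR DKO libraries were the 3 highest, while the transgenic libraries lay just above WT. Pxdn rose in LXR DKO against WT (1.74 ± 0.14, limma adjusted p = 0.000281) and fell in transgenic against LXR DKO (-1.41 ± 0.14, limma adjusted p = 0.0101), and transgenic minus WT was 0.33 ± 0.14 (limma adjusted p = 0.156). Omissions of 5 libraries ended the call between transgenic and LXR DKO (adjusted p = 0.0812 without LXR DKO 2, 0.0697 without LXR DKO 3, 0.0749 without transgenic 1, 0.0731 without transgenic 2 and 0.0805 without transgenic 3).

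Loxl4, a lysyl oxidase of collagen crosslinking, rose in transgenic (0.71 ± 0.13, limma adjusted p = 0.0138) and in LXR DKO (0.97 ± 0.13, limma adjusted p = 0.00374) against WT. It passed the filter only through the LXR DKO libraries with transgenic 1 and 3, and its highest WT value was 0.298 RPKM. Plod2, the lysyl hydroxylase of collagen telopeptides, fell in transgenic against WT (-0.71 ± 0.18, limma adjusted p = 0.0364), as did Pcolce2, an enhancer of procollagen cleavage (-0.85 ± 0.20, limma adjusted p = 0.0295). Pcolce2 passed the filter only through the WT libraries and LXR DKO 2, and its highest transgenic value was 0.515 RPKM. The counts of collagen-building genes therefore rest in part on genes that were tested because some libraries were high. With no filter, the LXR DKO call of Loxl4 held (limma adjusted p = 0.0104) and the transgenic call of Pcolce2 was lost (0.0731). Of 19 collagen and laminin receptor genes tested, 0 passed in LXR DKO against WT and 0 in transgenic against LXR DKO, where 10.6% and 0.116% of all tested genes did. In transgenic against WT, Itga3, an alpha subunit of laminin-binding integrins, rose (0.67 ± 0.10, limma adjusted p = 0.00713) and Itga9 fell (-0.62 ± 0.16, limma adjusted p = 0.0371). Of 20 other matrix genes tested, 2 rose and 1 fell in transgenic and 2 rose and 0 fell in LXR DKO against WT, where 11.9% and 10.6% of all tested genes passed in either direction, and 0 passed in transgenic against LXR DKO. Among them, Mgp, a matrix protein that limits calcification, rose in transgenic (1.88 ± 0.27, limma adjusted p = 0.00504) and in LXR DKO (1.33 ± 0.27, limma adjusted p = 0.0181) against WT. Agrn, the basement membrane proteoglycan agrin, rose in transgenic (0.89 ± 0.16, limma adjusted p = 0.0127), Sparc, a collagen-binding glycoprotein, fell there (-0.65 ± 0.15, limma adjusted p = 0.0293), and Mfap5, a microfibril protein, rose in LXR DKO (0.55 ± 0.14, limma adjusted p = 0.0457).

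The calls of Itga3, Agrn and Mgp in transgenic and of Loxl4 and Pxdn in LXR DKO against WT held under every alternative run that tested them. The other calls of these lists against WT did not. In transgenic, Loxl4 lost its call without transgenic 1, transgenic 3 or with quantile normalization (adjusted p = 0.0532 to 0.0919). Plod2 lost it without WT 1, WT 2, LXR DKO 3, transgenic 1, transgenic 2, transgenic 3, with no filter, with only the 2 genotypes compared or with WT 1 and LXR DKO 1 both left out (adjusted p = 0.0552 to 0.115). Pcolce2 did so without WT 1, WT 2, transgenic 1, transgenic 2, transgenic 3, with no filter or with WT 1 and LXR DKO 1 both left out (adjusted p = 0.0679 to 0.0939). Sparc did so without WT 1, WT 2, transgenic 1, transgenic 2, transgenic 3, with no filter or with WT 1 and LXR DKO 1 both left out (adjusted p = 0.0652 to 0.104), and Itga9 without WT 1, WT 2, LXR DKO 2, LXR DKO 3, transgenic 1, transgenic 2, transgenic 3, with no filter, with only the 2 genotypes compared or with WT 1 and LXR DKO 1 both left out (adjusted p = 0.0554 to 0.119). In LXR DKO, Mgp lost its call without LXR DKO 2, LXR DKO 3 or with no filter (adjusted p = 0.0547 to 0.0552). Mfap5 lost it without WT 1, WT 2, LXR DKO 1, LXR DKO 2, LXR DKO 3, transgenic 1, transgenic 2, with no filter, with only the 2 genotypes compared, with a pseudocount of 0.1, with quantile normalization or with WT 1 and LXR DKO 1 both left out (adjusted p = 0.0583 to 0.139).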

How the data were processed

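RNA was sequenced from corona radiata cells of 3 genotypes, 3 libraries each, and the deposited table of the authors gives an RPKM value (reads scaled to gene length and library size) for each of 54838 genes in each library. Named in the submitters' processing notes, with no role or order, are HTSeq 0.5.4p5, HISAT2 2.1.0, DESeq2 1.2.8, cutadapt and the mm10 build. The strand setting is not given in the sources used here, so genes that overlap on opposite strands, Col4a1 and Col4a2 at their starts among them, cannot be told apart in the shared bases. Columns were assigned to samples by name, with 1 letter of difference from the labels for the transgenic ones, and 0 value columns went unused.

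Values were taken as log2(RPKM + 1), which understates changes of low genes. The filter kept 16422 genes that reached 1 RPKM in 3 or more of 9 libraries. They were fitted in R 4.3.3 with limma 3.58.1, with a term for genotype, 1 spread per gene over all libraries, a variance trend, and Benjamini-Hochberg adjustment over all tested genes. Read numbers, used for depth and for limma-voom, were worked back from the deposited RPKM with GENCODE M21 exon lengths. With a tolerance of 0.02 reads, 37146 of 37863 detected genes (98.1%) came out whole in every library. The fit was tested on simulated data. Coordinates of genes are mm10, from GENCODE M21.

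The genes and lists were chosen with earlier results of these data known. Described one by one were all genes past the threshold in any comparison and the 3 with the highest mean RPKM in each class. The others are given by ranges, and some by values that were added after they were seen. A gene that the choice by symbol takes is not reported here, and all counts, sums and shares of these genes leave it out. Alternatives were a pseudocount of 0.1, no filter, a stricter filter (RPKM of at least 5), quantile normalization, a replicate block, only the 2 genotypes compared, voom on read numbers, and leaving out each library in turn or both WT 1 and LXR DKO 1. For Col17a1 alone, no filter with each WT library left out was added after the data were seen.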

Additional observations from a re-analysis of the deposited data

How the results depend on the processing

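With 3 libraries a genotype, most calls lay close to the threshold. Over 12 called pairs of gene and comparison and 189 alternatives, 129 kept the call, 60 lost it and 0 changed direction, and of 216 alternatives for 13 related calls 59 lost theirs. The 189 include the settings for Col17a1 that were chosen after the data were seen, no filter with each WT library left out. All of these kept the call and are among the 129. The causes were not tested beyond the libraries and filters that each alternative leaves out. In LXR DKO against WT, the 2 genes that rose became 4 with quantile normalization and 0 with only the 2 genotypes compared, and 0 to 3 on leaving out a library. The 2 that fell became 1 with no filter, a stricter filter, only the 2 genotypes compared or voom, 0 without both WT 1 and LXR DKO 1, and 0 to 3 on leaving out a library. Col17a1 was not tested with the stricter filter, with voom, without both WT 1 and LXR DKO 1, or without any WT library, so there it left the count untested. In transgenic against LXR DKO, 0 genes rose or fell, but 1 fell with only the 2 genotypes compared, and up to 1 fell on leaving out a library. In transgenic against WT, the 6 that rose became 4 with a pseudocount of 0.1, only the 2 genotypes compared or voom, 3 with no filter or a stricter filter, 2 without both WT 1 and LXR DKO 1, and 1 to 7 on leaving out a library. The 2 that fell became 1 without both WT 1 and LXR DKO 1, and 1 to 4 on leaving out a library. They stayed 2 with the stricter filter and with voom, but there Col6a1 (limma adjusted p = 0.0485 and limma-voom adjusted p = 0.0469) stood in place of Col17a1, which was not tested. Over all genes, the calls of transgenic against WT numbered 1949, of which 43.4% were higher, against 3442 and 58.6% without WT 3. Those of LXR DKO against WT numbered 1739 and 32.8%, against 2082 and 43.2% without WT 3. Reversals touched only differences past no threshold. With quantile normalization they were -0.060 for Lama5, -0.13 for Lama3 and -0.064 for Col16a1 in LXR DKO minus WT, -0.089 for Col17a1 in transgenic minus LXR DKO and -0.021 for Col3a1 in transgenic minus WT. Without both WT 1 and LXR DKO 1 they were -0.067 for Lamc1 and -0.28 for Fn1 in transgenic minus LXR DKO. On leaving out a library the values ran from -0.028 to 0.30 for Lama3 in LXR DKO minus WT, -0.029 to 0.32 for Col16a1 in LXR DKO minus WT, -0.067 to 0.089 for Lamc1 in transgenic minus LXR DKO, -0.28 to 0.33 for Fn1 in transgenic minus LXR DKO, -0.028 to 0.038 for Col17a1 in transgenic minus LXR DKO, -0.14 to 0.034 for Col5a2 in transgenic minus WT and -0.15 to 0.20 for Col3a1 in transgenic minus WT. The labels do not say whether replicate numbers pair the libraries, and the correlations cannot settle it, because the 3 deviations of a genotype are tied to its mean. The correlations of same-numbered deviations were 0.672, -0.107 and 0.087 between LXR DKO and WT, -0.238, -0.293 and -0.002 between transgenic and LXR DKO, and -0.241, 0.211 and 0.372 between transgenic and WT. Not every library correlated best with its own number, though LXR DKO 1 and WT 1, both rich in oocyte RNA, did with each other. With a replicate block, 0 genes rose in LXR DKO and 4 in transgenic against WT, the adjusted p being 0.0547 for Lamb2 and 0.0572 for Fn1 in LXR DKO, and 0.08 for Lamc1 and 0.0515 for Col16a1 in transgenic. It was 0.0841 for Mfap5, 0.0681 for Pxdn (transgenic minus LXR DKO) and 0.0567 for Itga9. The calls over all genes under the block numbered 1178 in LXR DKO against WT, 8 in transgenic against LXR DKO and 1513 in transgenic against WT, against 1739, 19 and 1949 without it. Depth limits Lama3, Lama5 and Col16a1, the lowest called genes, and is unknown for Col17a1.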
